A study of Mus musculus with 14 samples.

Results

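Accessible chromatin was compared between 24 h and 48 h of GATA6-driven differentiation of mouse embryonic stem (ES) cells, the last interval of a 7 time point ATAC-seq series with 2 libraries at each time. ATAC-seq marks open DNA by the insertion of sequencing adapters with a transposase. The peak lists of the 4 libraries were merged wherever peaks overlapped by 1 bp or more, which gave 77809 regions, against 124598 regions when all 14 libraries were merged. A region was termed gained if it was called at 48 h in both libraries and at 24 h in none. It was termed lost if the calls were the other way round, and shared if every one of the 4 libraries called it. By this rule 6057 regions were gained (7.78% of the merged regions), 6270 were lost (8.06%) and 35915 were shared (46.2%). The other 29567 regions had mixed calls, of which 17167 were called in a single library.

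The cells were KH2 ES cells, strain C57BL/6, with the transgene TRE:GATA6-DSREd2, in which doxycycline (Dox) turns on GATA6. They were kept in 2i medium with LIF and moved to serum medium with LIF and Dox at 1 µg/mL. Both the 24 h and the 48 h cells had Dox in the medium for 12 h and stayed in serum medium without it afterwards, so the transgene inducer was absent from both groups at collection. Each library came from 50000 cells, and the labels name no sort. The study's reporting form describes its replicate experiments in general as independent, but neither it nor the labels say of these libraries that the 2 of a time came from separate cultures, so the spread between them may be technical. Cells moved to serum medium without any Dox were not analysed here. In a bulk library a smaller share of cells with an open site and less opening per cell cannot be told apart.

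Primitive endoderm (PrE) forms beside the epiblast (Epi) in the blastocyst, and gives rise to the visceral and parietal endoderm of the yolk sac. GATA6 stands at the top of a set of PrE transcription factors that includes GATA4, SOX17, SOX7, HNF4A and FOXA2. The epiblast and ES cells are held by OCT4 (the product of Pou5f1), SOX2, NANOG, ESRRB and KLF factors. Visceral endoderm later takes up maternal proteins through receptors such as cubilin and secretes apolipoproteins and other serum proteins, and parietal endoderm lays down a thick basement membrane.

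To show what such regions look like, 200 bp windows around region midpoints are given below in lower case, on the plus strand of GRCm38. Capitals mark matches, on either strand, to the 9 motifs searched. For endoderm factors these were AGATAA as the letters read by the zinc fingers of GATA proteins, CCATTGT as those of the SOX family, CAAAGTCCA as the nuclear receptor motif of HNF4A, and TGTTTAC as the forkhead motif of FOXA proteins. For pluripotency factors they were ATTTGCAT as the octamer read by OCT proteins, TCAAGGTCA as the motif of the orphan receptor ESRRB, and GGGTGTGG as that of the KLF family. TGANTCA stood for AP-1, the dimer of FOS and JUN proteins, and ACATTCC for the TEAD proteins of the Hippo pathway. Of 10 windows taken from the highest-scoring gained and lost regions, 4 held any match, and of 26 windows at named loci, 13 did. Only windows with a match are shown, and they were picked after the matches were seen. Over all merged regions, 36.4% of the windows held at least 1 match.
E2f7, gained, 31777 bp from the start site, chr10:110713588-110713787: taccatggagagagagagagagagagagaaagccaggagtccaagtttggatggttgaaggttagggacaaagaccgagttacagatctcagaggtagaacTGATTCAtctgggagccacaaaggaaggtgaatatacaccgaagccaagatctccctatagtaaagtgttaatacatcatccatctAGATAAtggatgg
Ehd4, gained, 33076 bp away, chr2:120121430-120121629: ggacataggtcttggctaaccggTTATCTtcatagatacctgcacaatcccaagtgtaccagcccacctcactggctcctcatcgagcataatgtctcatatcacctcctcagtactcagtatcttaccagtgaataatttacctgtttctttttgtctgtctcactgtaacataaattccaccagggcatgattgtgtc
Scoc, gained region 236 bp from a start site, chr8:83458485-83458684: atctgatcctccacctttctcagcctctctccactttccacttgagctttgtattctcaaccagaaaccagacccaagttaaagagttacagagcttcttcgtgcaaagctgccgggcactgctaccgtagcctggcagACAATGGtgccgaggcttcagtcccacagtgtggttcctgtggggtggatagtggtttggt
Pdgfra, gained region 797 bp from a start site, chr5:75151395-75151594: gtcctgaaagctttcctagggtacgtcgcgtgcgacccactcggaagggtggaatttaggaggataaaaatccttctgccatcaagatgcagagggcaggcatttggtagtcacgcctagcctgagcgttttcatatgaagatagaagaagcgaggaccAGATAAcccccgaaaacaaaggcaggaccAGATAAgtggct
Plxna1, lost, 66012 bp away, chr6:89291605-89291804: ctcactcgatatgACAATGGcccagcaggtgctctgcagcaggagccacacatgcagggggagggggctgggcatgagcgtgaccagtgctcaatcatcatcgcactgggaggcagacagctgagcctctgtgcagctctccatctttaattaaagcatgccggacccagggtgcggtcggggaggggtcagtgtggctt
Esrrb, lost intronic region, chr12:86479034-86479233: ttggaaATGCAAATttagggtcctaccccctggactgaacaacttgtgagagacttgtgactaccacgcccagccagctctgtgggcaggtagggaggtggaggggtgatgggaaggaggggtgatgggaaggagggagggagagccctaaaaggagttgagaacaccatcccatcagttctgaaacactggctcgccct
Esrrb, a further lost intronic region, chr12:86466253-86466452: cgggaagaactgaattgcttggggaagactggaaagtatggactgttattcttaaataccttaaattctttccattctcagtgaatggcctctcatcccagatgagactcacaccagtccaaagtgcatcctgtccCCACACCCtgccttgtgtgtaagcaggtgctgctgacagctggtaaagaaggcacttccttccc
Prdm14, lost, 23027 bp away, chr1:13104036-13104235: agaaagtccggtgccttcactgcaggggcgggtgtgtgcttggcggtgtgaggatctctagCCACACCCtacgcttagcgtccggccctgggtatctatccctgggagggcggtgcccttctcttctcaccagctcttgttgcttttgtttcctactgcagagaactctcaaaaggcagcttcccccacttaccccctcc

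The 24 h lists held 56981 and 58242 peaks and the 48 h lists 55588 and 58450. The means, 57611.5 ± 892 for 24 h and 57019.0 ± 2024 for 48 h (SD over 2 libraries), differed by less than the spread (difference of -592.5, exact permutation p = 1.00, two-sided), and a design of 2 against 2 cannot give a p below 0.333. Peaks covered 24.6 and 26.1 Mb at 24 h and 23.0 and 25.6 Mb at 48 h (exact permutation p = 0.667). The base-pair overlap of the lists (Jaccard index) was 0.691 between the 24 h libraries, 0.686 between the 48 h libraries and 0.562 to 0.575 between times. Read counts are not part of the lists, the depth of a library cannot be read from them, and a region without a call may have been open below the threshold of that list. With either 48 h library left out, 9487 to 11094 regions met the rule for gained, and with either 24 h library left out 10267 to 10973 met the rule for lost.

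Marker genes were examined at their promoters, taken as regions with the midpoint within 1 kb of a start site of a protein-coding gene. Over all 21924 protein-coding genes, 54.2% had a promoter called in both 24 h libraries and 53.9% in both 48 h libraries. Of 10 PrE markers, 8 had one at 24 h and 9 at 48 h, Col4a1 being the exception at 48 h. Of 6 ES cell and epiblast markers, 5 had a called promoter at 24 h and 4 at 48 h, with Nanog and Klf4 not called in both 48 h libraries. Of the fibroblast markers, 1 of 10 had a called promoter at each time. Promoters of 7 of 12 mesoderm and neuroectoderm markers were called at both times, and those of trophectoderm markers went from 8 of 10 to 7. The PrE, ES cell and epiblast, trophectoderm, and mesoderm and neuroectoderm counts all lay above the share of all genes at both times. A count above that share was therefore not particular to PrE markers. The fibroblast count lay below it, and no test was made on lists of this size.

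Gained and lost regions lay mostly away from promoters. Of the gained regions, 590 (9.74%) were promoters, against 471 of the lost (7.51%) and 12954 of the shared regions (36.1%). When the classes were formed within each pair of same-numbered libraries, promoters made up 11.5% and 14.6% of gained regions, 11.8% and 9.13% of lost regions, and 33.6% and 33.7% of shared regions. The gained and lost values overlapped between pairs, and the shared values lay apart from both. The median distance to a start site was 23941 bp for gained, 21746 bp for lost and 7472 bp for shared regions. Introns held 48.9% of gained and 47.8% of lost midpoints, and 46.1% and 45.6% were intergenic. Gained regions had a median width of 363 bp, lost regions 412 bp and shared regions 571 bp. Only 9.92% of gained and 7.93% of lost regions lay within 500 bp of a shared region.

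Each peak carries the authors' score, which was converted to a percentile within its own list, 100 being the highest, and a region took its highest peak. Changed regions ranked low. The median percentile of gained regions was 29.8 and 31.3 in the 48 h libraries, that of lost regions was 27.5 and 29.2 in the 24 h libraries, and that of shared regions was 65.8 to 67.9 in the 4 libraries. The mean of the gained medians, 30.6, became 19.7 without 48 h replicate 1 and also without 48 h replicate 2, and that of the lost ones went from 28.4 to 19.7 without 24 h replicate 1 and 19.3 without 24 h replicate 2. Peaks at or above the percentile 90 made up 0.305% ± 0.035 of gained regions and 0.00797% ± 0.0113 of lost regions, against 15.7% ± 0.553 of shared regions at 48 h (SD, n = 2). Regions called in a single library ranked lower still, with a median percentile of 9.86 over 8467 regions for 48 h and 10.5 over 8700 for 24 h. Regions called in both 48 h libraries and 1 of 24 h ranked higher than gained ones, at 34.4 over 4528 regions in the 48 h lists. Those called in both 24 h libraries and 1 of 48 h had 35.2 over 4648 regions in the 24 h lists. Gained promoters had a median percentile of 21.8 and 27.8, and gained regions over 5 kb from a start site 30.5 and 31.8.

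The gained regions of highest score described here were sites without an earlier call. The region 31777 bp from E2f7, a cell-cycle repressor of the E2F family, ranked at the percentiles 98.2 and 97.6 of the 48 h lists, and no library from 0 to 24 h called it. A region 7266 bp from Dnase1, which encodes a secreted nuclease, reached 95.1 and 96.6, also without an earlier call. In an intron 33076 bp from Ehd4, whose product acts in endocytic recycling, the percentiles were 91.9 and 95.1. All 3 of these thus entered the 48 h lists near the top of the ranking. The leading gained promoter regions were those of Scoc (93.5 and 93.3), C9, a complement component made by liver (78.1 and 78.7), Rnf223 (73.9 and 75.5) and Zbtb5 (70.4 and 75.4), none of which was called before 48 h. Scoc, C9 and Zbtb5 each had a further region within 1 kb of a start site that was shared.

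Among the lost regions, the highest scores belonged to sites of differing histories. The promoter of Nupr1, a stress-response gene, was called in all 12 libraries of 0 to 24 h, at the percentiles 87.1 and 86.2 at 24 h, and in neither 48 h library. A region 214 bp from a start site of Dennd2c followed the same course (66.2 and 71.4 at 24 h), while another promoter region of this gene was called in all libraries. The same course was taken by a region 9643 bp from Nacad that lies in a UTR (88.6 and 88.3). The promoter of Adgrf3 had no call at 0 h and was called in every library from 2 to 24 h (66.4 and 78.6 at 24 h). Likewise, an intronic region whose nearest start site is that of Flrt3, 259083 bp away, had no call at 0 h, 1 at 2 h and calls in every library from 4 to 24 h (88.3 and 89.1 at 24 h). A site 66012 bp from Plxna1 (84.1 and 89.3) was called at 0 h, in neither 2 h library, and again from 4 h. The leading lost regions also held the promoter of Sstr5, a somatostatin receptor gene (66.1 and 70.8), and an intronic site 38498 bp from Cystm1 (82.2 and 85.2).

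The calls of the 10 earlier libraries were not used by the rule and showed when these regions had been open. Calls in the 0 h libraries covered 50.6% and 53.1% of the lost regions. This became 68.5% and 67.8% in the 8 h libraries, then 83.2% and 86.0% in those of 16 h. Of the gained regions, 8.29% and 8.92% were called at 0 h and 10.1% and 13.1% at 16 h. The share of lost regions called increased with time (Spearman rho of 0.960 with a permutation p of 0.00011, or 0.00022 after Benjamini-Hochberg adjustment, and Pearson r of 0.982 with 2e-05, or 8e-05 adjusted, two-sided, n = 10). The same was seen for gained regions at a far lower level (rho of 0.837 with a permutation p of 0.00478, or 0.00637 adjusted, and r of 0.777 with 0.00765, also 0.00765 adjusted), with adjustment over these 4 coefficients. Without the 16 h libraries, r was 0.938 for lost (exact permutation p = 0.000794) and 0.896 for gained regions (exact permutation p = 0.00238, n = 8). The lists themselves also lengthened, from 56924 and 60483 peaks at 0 h to 61857 and 65073 at 16 h. With only the 50000 highest peaks of each list, the relation of gained regions with time was no longer seen (rho = 0.0490, permutation p = 0.921). In the full lists this relation thus cannot be told apart from list length. Shared regions also became more often called, from 67.4% ± 1.86 at 0 h to 90.9% ± 0.451 at 16 h (SD, n = 2). A growing share was thus not particular to the lost class. Lost and shared regions alike had to be called in both 24 h libraries, which favours a rise toward that time. The p-values of lost regions are therefore no evidence about that class. The shuffles also took the 2 libraries of a time as separate units, though they may be technical repeats. All p-values of these relations may thus be too small.

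**Figure D1:**
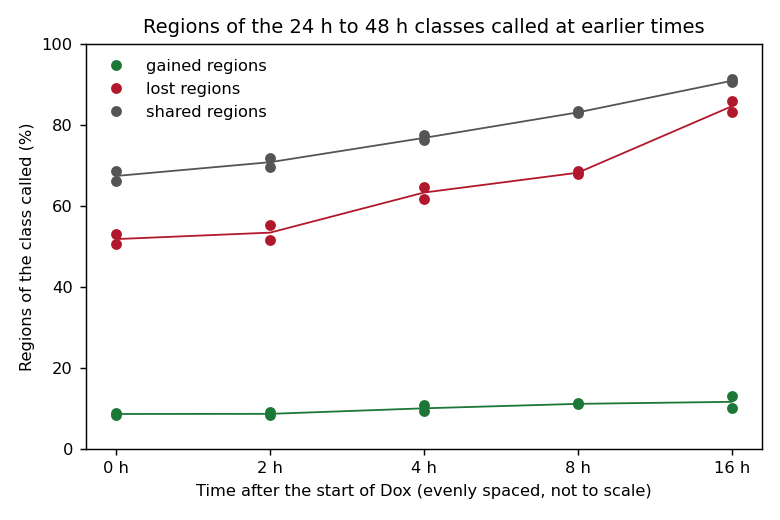
Share (%) of gained, lost and shared regions called in each library of 0, 2, 4, 8 and 16 h, with 2 points per time and lines through their means. Gained regions stay between 8.27% and 13.1%, while lost and shared regions climb together to 84.6% and 90.9% at 16 h.

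Gained regions were thus largely late sites, and lost regions a mixture. None of the 12 earlier libraries called 4257 gained regions (70.3%), 329 (5.43%) were called in both 0 h libraries and then absent at 24 h, and 478 (7.89%) lacked a 0 h call but were called in both libraries of a time between 2 and 16 h. Of the lost regions, 2886 (46.0%) had been called in both 0 h libraries and 2655 (42.3%) in neither, so that their first calls came after induction. Of the former, 1793 were called in all 12 libraries of 0 to 24 h. The median percentile of these 1793 regions was 71.0 ± 0.261 in the 0 h lists and 66.2 ± 2.25 in the 16 h lists, and 36.2 ± 0.924 in those of 24 h (SD over 2 libraries). Over the same times the 19016 shared regions called in all 14 libraries went from 75.4 ± 1.66 to 79.4 ± 0.404. In the lost set both 24 h values, 35.6 and 36.9, lay below each of the 10 earlier ones. The 24 h libraries took part in the rule, so this lower rank is a description with no test.

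Gained and lost regions differed more in sequence than in their promoter share. At regions over 5 kb from a start site, HNF4 matches were in 1.01% of gained and 0.236% of lost windows, beside 0.370% for shared ones, a gained share 4.29 times the lost one. SOX matches stood at 10.1%, 4.33% and 6.83%, a gained share 2.33 times the lost one. The order was the opposite for pluripotency factors. For OCT, matches were found in 0.786% (gained), 4.10% (lost) and 1.70% (shared) of distal windows, for ESRRB in 0.228%, 1.22% and 0.608%, and for KLF in 1.84%, 10.2% and 4.87%, which put the lost shares 5.21, 5.37 and 5.52 times above the gained ones. Over all merged regions the shares were 0.386% for HNF4, 5.09% for SOX, 1.69% for OCT, 0.549% for ESRRB and 4.75% for KLF.

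These differences were larger than the spread between pairs of same-numbered libraries. Both pairs hold all 6057 gained and 6270 lost regions, so their shares are not independent and this spread may be too small. With classes formed within a pair, HNF4 was in 0.771% ± 0.044 of gained and 0.233% ± 0.0278 of lost regions, KLF in 2.38% ± 0.179 and 8.40% ± 0.236, OCT in 0.931% ± 0.0171 and 3.16% ± 0.284, and SOX in 7.46% ± 0.435 and 4.08% ± 0.0337 (SD, n = 2 pairs). Gained windows were poorer in GC, at 47.8% for distal regions against 51.1% for lost ones. Distal regions were therefore also split at a GC content of 48.0% and 53.0%, and the orders were kept in all 3 classes. SOX was in 11.6%, 9.11% and 7.78% of gained against 6.10%, 4.54% and 2.83% of lost distal regions from the lowest to the highest class. KLF stood at 0.984%, 2.42% and 3.28% of gained against 7.78%, 10.1% and 12.0% of lost regions. In each GC class, gained regions also had the lower OCT and ESRRB share and the higher HNF4 share. Before this split only 13 lost regions held an HNF4 match and 14 gained ones an ESRRB match. The orders of these 2 motifs within a GC class thus rest on very few windows. A motif match is a run of letters and was not tested for binding.

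The GATA motif itself set the classes apart less. Its share was 26.3% for gained and 20.9% for lost windows, 15.2% for shared ones and 17.6% for all regions. By pair it was 21.8% ± 0.847 for gained and 19.6% ± 1.25 for lost regions (SD, n = 2 pairs). At distal regions the shares were 28.6%, 22.2% and 22.8%. A permuted motif of the same letters (AAGTAA) was also more frequent in gained than in lost distal regions, at 10.6% and 7.56%, a ratio of 1.41 against 1.29 for GATA. In the class of lowest GC content GATA matches stood at 36.9% of gained and 37.3% of lost regions, both under the 41.0% of shared ones. The shares lay further apart by history. GATA matches were in 35.0% of lost regions without a 0 h call and 9.53% of those called at 0 h, and in 36.4% and 6.41% of shared regions split in the same way. Gained regions not called before 48 h had 28.5%, and those called earlier only between 2 and 16 h had 40.2%.

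AP-1, TEAD and FOXA matches differed by less. AP-1 was in 9.20% of lost, 6.58% of gained and 6.96% of shared distal regions, a lost share 1.40 times the gained one. FOXA was in 5.55% of gained and 3.70% of lost distal regions, with 4.55% for shared ones, and TEAD in 7.20%, 5.67% and 6.70%. For TEAD the gained share was 1.27 times the lost one, below the 1.41 of the permuted motif. Over all merged regions AP-1 matches were in 6.27%, TEAD in 5.30% and FOXA in 3.64%.

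**Figure D2:**
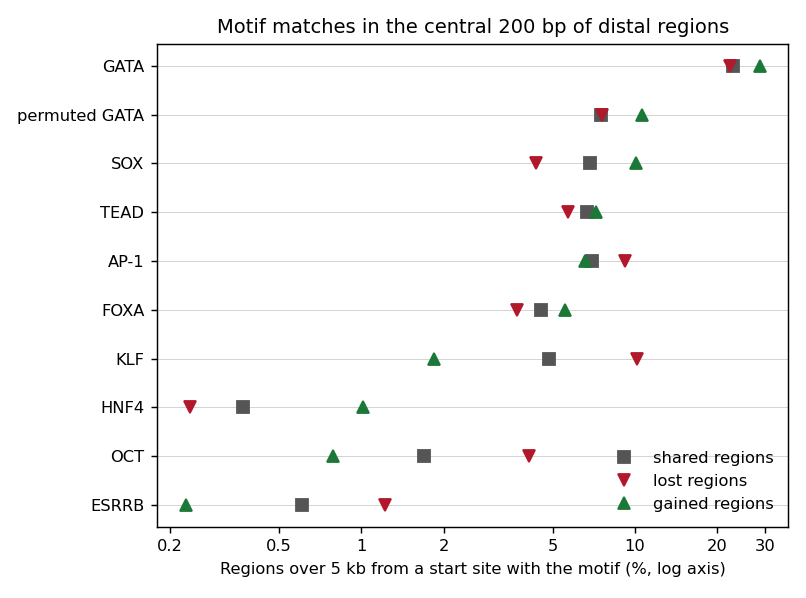
Share (%, log axis) of gained, lost and shared regions over 5 kb from a start site whose central 200 bp hold each motif. HNF4 and SOX are highest in gained regions (1.01% and 10.1%), and KLF, OCT and ESRRB highest in lost regions (10.2%, 4.10% and 1.22%).

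Shared regions were tested for a change in rank with limma, on normal scores of the score ranks within each list and with Benjamini-Hochberg adjustment over all 35915 regions. At an adjusted p under 0.05, 3225 rose (8.98%) and 4105 fell (11.4%). Regions that rose had a median percentile of 49.7 and 51.5 at 24 h and 79.1 and 78.9 at 48 h. Those that fell went from 78.8 and 79.1 to 48.2 and 49.3. Regions that rose were more often distal than shared regions as a whole (71.9% against 55.0%), and so were those that fell (77.7%). Without the 48 h replicate 1 library 2129 regions rose. A rank within a list moves with the rest of that list, and regions whose peak was lost in any library are outside this test.

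The motif orders of regions that rose and fell followed those of the gained and lost classes. Both 0 h libraries called 26.5% of the regions that rose and 69.9% of those that fell, against 63.0% of all shared regions. By this measure mainly the regions that rose stood apart. Among distal regions, HNF4 matches were in 0.820% of those that rose and 0.282% of those that fell, and SOX in 12.6% and 5.58%. KLF matches were in 2.33% and 9.34%, OCT in 1.25% and 3.17% and ESRRB in 0.388% and 1.03%. GATA was in 30.6% of those that rose and 25.1% of those that fell, against 22.8% of all shared distal regions. At 16 h, 72.9% of the regions that later rose and 99.4% of those that later fell were called, against 90.9% of all shared regions.

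**Figure D3:**
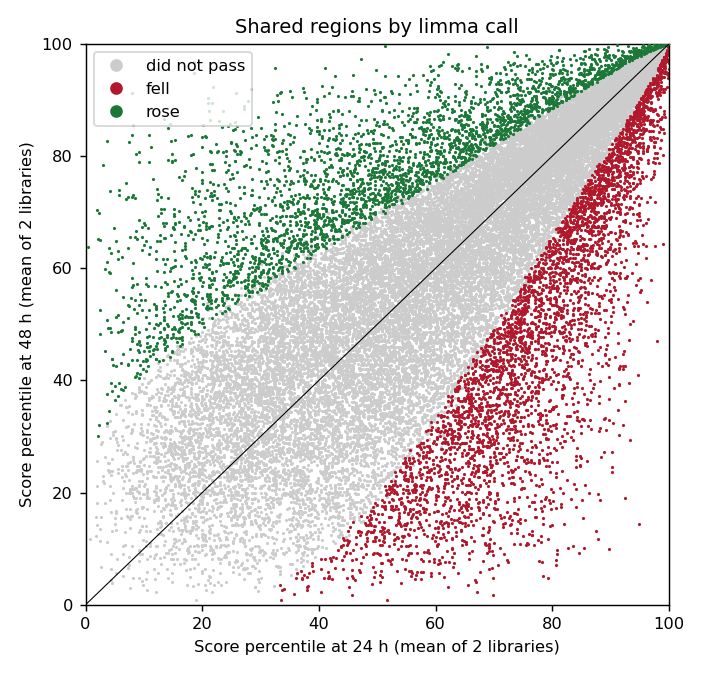
Each point is 1 of 35915 shared regions, placed by its mean score percentile at 24 h (x) and 48 h (y) over 2 libraries each. The 3225 regions that rose (green) lie above the diagonal and the 4105 that fell (red) below it, and grey regions did not pass.

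The 5 largest rises were picked by their difference, which favours a low rank at 24 h. An intergenic region 181796 bp from Igfbp7, an IGF-binding protein gene, stood at the percentiles 25.7 and 11.5 at 24 h and 96.5 and 96.9 at 48 h (difference in normal score 3.32 ± 0.231 SE, limma adjusted p = 2.74e-06). A region 13076 bp from Yjefn3 went from 10.8 and 5.08 to 90.9 and 91.4, and one 10213 bp from Dapk2, a calmodulin-regulated kinase gene, from 16.0 and 0.283 to 87.7 and 83.5. Regions nearest to Bms1 and Lyplal1 completed the 5 largest rises, with differences of 3.62 and 3.44. None of the 5 was called at 0 to 8 h. The largest fall was in an intron of Cubn, 97534 bp from its nearest start site. It was called in every library from 2 h and dropped from 94.8 and 94.7 to 26.2 and 2.68 (difference -3.41 ± 0.356 SE, limma adjusted p = 3.00e-05). The next 4, nearest to Zfp169, Gm4756, Med4 and 1700056E22Rik, had been called in all libraries since 0 h and had differences between -3.17 and -2.97.

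Regions were assigned to the protein-coding gene with the nearest start site within 50 kb. Among all 60313 assigned regions, 6.88% were gained, 7.42% lost and 49.5% shared, and of the 29830 assigned shared regions 7.93% rose and 10.2% fell. These background shares apply to each gene list given next. Near the 577 matched genes of the study's blastocyst-derived PrE list, 299 of 3184 regions were gained (9.39%) and 188 lost (5.90%). Near its 220 matched Epi genes the picture was reversed, with 59 of 1212 gained (4.87%) and 140 lost (11.6%). Shared regions followed: 13.8% rose and 9.20% fell near PrE genes, while 6.24% rose and 16.4% fell near Epi genes. The list shares changed with the library left out, from 11.8% to 15.6% for gained near PrE genes and from 14.2% to 18.6% for lost near Epi genes.

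At the loci of PrE transcription factors, 13 of 133 regions were gained (9.77%) and 10 lost (7.52%), and 10 of 68 shared regions rose (14.7%) while 8 fell (11.8%). Hnf4a, a nuclear receptor gene of visceral endoderm (chr2:163506808-163572910), had 3 gained intronic regions at the percentiles 14.6 and 16.6, 52.2 and 48.8, and 26.5 and 26.0. No lost region lay near Hnf4a. None of these 3 regions was called in any earlier library.

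Sox17, which encodes an SRY-box factor of PrE (ENSMUSG00000025902, chr1:4490931-4497354), showed the most rises among the loci examined. It had no gained region, but 6 of its 9 shared regions rose and none fell. The region at its start site, chr1:4496113-4496825, stood at the percentiles 6.24 and 8.31 at 24 h and 48.3 and 54.0 at 48 h (difference 1.75 ± 0.396 SE, limma adjusted p = 0.00611). A site 16532 bp away went from 49.0 and 22.2 to 82.4 and 82.7, and 1 that lies 41068 bp away from 72.9 and 77.1 to 92.3 and 90.9. The limma test picked these 6 from the same values, so the lack of overlap between groups at each adds no support. The lost region of Sox17 ranked at 12.1 in both 24 h libraries.

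Other PrE factors moved less. Sox7 had 2 gained regions, the stronger at 46.6 and 40.0, and no lost one. Gata4 had 1 gained intronic region (55.6 and 51.2) and 1 lost (46.7 and 37.0), and none of its 6 shared regions passed the test. Of the 7 shared regions at Gata6, 1 rose and 2 fell, and 1 region was lost. Foxa2, a forkhead factor gene, had 3 lost regions and no gained one, the strongest at 32.9 and 44.4 in the 24 h libraries. However, a region 44057 bp from Foxa2 rose from 24.8 and 48.6 to 81.2 and 78.5 (limma adjusted p = 0.00103). Nr2f2, a nuclear receptor gene, had 2 lost regions at percentiles of 18.1 or less.

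Pdgfra, the receptor used to recognise PrE cells (ENSMUSG00000029231, chr5:75152292-75198215), led the signalling list with 4 gained regions and had 1 lost region (26.5 and 38.4). A gained region 797 bp from a start site was called in both 8 h and both 16 h libraries, in neither at 24 h, and again at 48 h at the percentiles 53.4 and 50.7. The Pdgfra promoter as a whole was not without calls at 24 h, since 3 other regions within 1 kb of its start sites were shared, and those at 15 and 471 bp were called in every library from 0 h. The third, 780 bp from a start site, rose from 42.3 and 45.1 to 77.9 and 74.8 (limma adjusted p = 0.00209). Etv5, an ETS factor gene downstream of FGF signalling, gained 3 regions and lost 3, at distances of 16396 to 42362 bp from its start sites. Fgfr3 had 2 gained regions, while Fgfr1, Fgfr2 and Dusp6, a feedback inhibitor of ERK, had 2 lost regions each. Over the list, 14 of 157 regions were gained (8.92%) and 16 lost (10.2%).

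**Figure D4:**
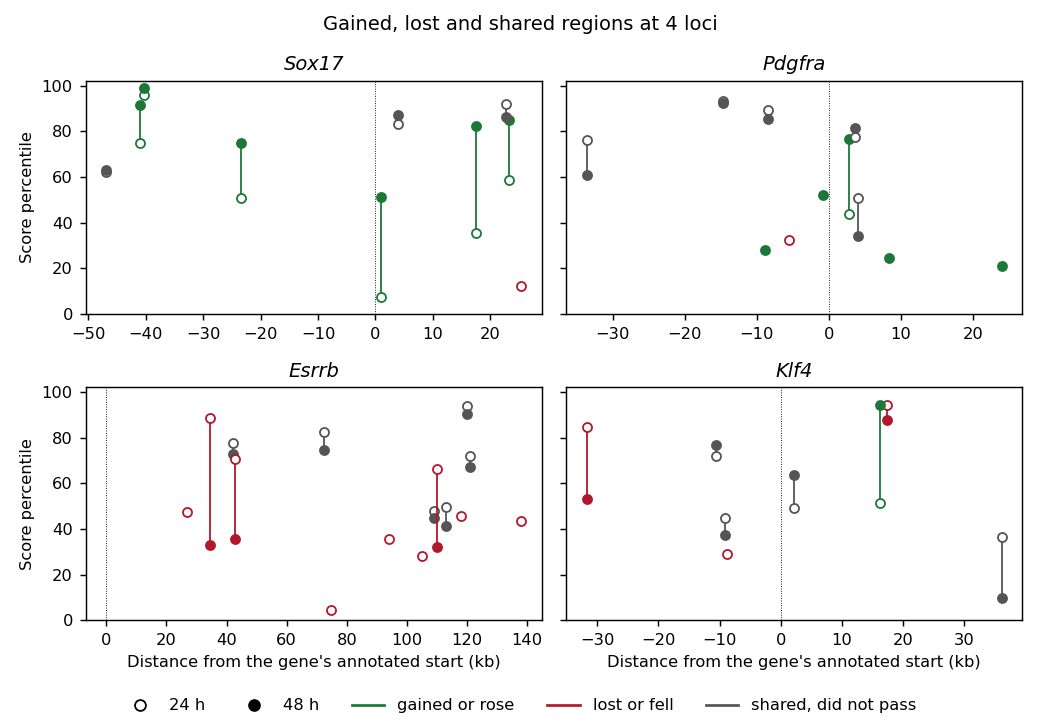
Score percentile (mean of 2 libraries) of gained, lost and shared regions at Sox17, Pdgfra, Esrrb and Klf4, by distance (kb) from the gene's annotated start in the direction of transcription. Open circles are 24 h, filled circles 48 h. Green marks gained regions and rises, as at 6 of 9 shared Sox17 regions, and red lost regions and falls, as at 6 lost and 3 falling Esrrb regions.

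Lists of differentiated endoderm differed in their gained shares beside the 6.88% of all assigned regions. Endocytic receptors (7.50%), parietal endoderm genes (6.98%) and visceral endoderm patterning genes (6.67%) lay close to it. Near visceral endoderm secreted proteins, 6 of 51 regions were gained (11.8%) and 2 lost (3.92%). Alb, the albumin gene, had 2 gained regions at the percentiles 43.3 and 57.6, and 53.7 and 63.4. Apoa1 and Apoa4, which encode apolipoproteins, had 2 and 1, with the Apoa4 region 1370 bp from its start site at 56.0 and 53.1. Of the endocytic receptors, 6 of 80 regions were gained (7.50%) and 5 lost (6.25%), close to the background, and of their 40 shared regions 5 rose (12.5%) and 6 fell (15.0%). The promoters of Cubn (64.7 and 60.1) and of Amn, its membrane partner amnionless (41.4 and 44.4), were both gained without an earlier call, and each gene also had 1 lost region. A gained region of Clic5 reached 79.4 and 79.3, and 1 near Lrp2, the megalin gene, 40.6 and 48.6.

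Basement membrane genes had 12 gained (9.02%) and 8 lost regions (6.02%) of 133, and 13 of 77 shared regions rose (16.9%) against 8 that fell (10.4%). Lamb1 and Lamc1, the laminin chain genes, each gained 2 regions, the strongest at 67.1 and 71.6 near Lamb1, and Agrn gained 2 and lost 1. Lama5 lost 2. Parietal endoderm genes had 6 gained (6.98%, close to the background) and 4 lost regions (4.65%) of 86, with 10 of 43 shared regions rising (23.3%) and 4 falling (9.30%). The strongest was an intronic region of Pth1r, the parathyroid hormone receptor gene, at 77.4 and 80.9, and Itga5 gained 2. Near lipid and cholesterol genes 11 of 114 regions were gained (9.65%) and 7 lost (6.14%), and 7 of 62 shared regions rose (11.3%) while 9 fell (14.5%). These included 1 gained region each at Abca1 and Acaca. Visceral endoderm patterning genes had 5 gained (6.67%) and 3 lost (4.00%) of 75 regions, and 6 of their 43 shared regions rose while 9 fell.

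Naive pluripotency genes had more lost than gained regions, with 20 lost (13.3%) and 5 gained (3.33%) of 150. Of their 66 shared regions 11 fell (16.7%) and 7 rose (10.6%). Esrrb, an orphan nuclear receptor gene of naive ES cells (ENSMUSG00000021255, chr12:86361117-86521628), had 6 lost regions, all intronic, and no gained one. Their 24 h percentiles ranged from 0.459 to 56.7, and 4 of them had been called in both libraries at 0 h. Of its 9 shared regions 3 fell, the largest from 88.0 and 89.6 to 33.9 and 32.3 (difference -2.02 ± 0.202 SE, limma adjusted p = 2.37e-05). Tet2, a 5-methylcytosine oxidase gene, lost 4 regions, and Prdm14 lost 2 and gained 1 (65.9 and 71.0). Nanog, Sox2 and Pou5f1 had neither gained nor lost regions. A region 1892 bp from Pou5f1 fell from 88.8 and 91.4 to 79.0 and 76.7 (limma adjusted p = 0.00982).

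Klf4 had 1 lost region, and of its 7 shared regions 1 rose and 2 fell. The one that rose, 16341 bp away, went from 53.7 and 48.9 to 93.5 and 95.1 (difference 1.88 ± 0.163 SE, limma adjusted p = 1.06e-05) and had no call before 24 h. A region 31740 bp away fell from 86.3 and 82.6 to 50.4 and 55.5 (limma adjusted p = 5.91e-04). Formative and primed epiblast genes had 10 lost (15.9%) and 3 gained (4.76%) of 63 regions, and 9 of their 21 shared regions fell (42.9%) while 3 rose (14.3%). Dnmt3a, a de novo DNA methyltransferase gene, lost 4 of these and gained 1. General pluripotency genes had 7 lost (7.61%, close to the background) and 3 gained (3.26%) of 92 regions, with 2 lost at Mycn. Of their 52 shared regions 11 fell (21.2%) while 6 rose (11.5%). In the naive, formative and general lists alike, shared regions rose and fell more often than all assigned shared regions (7.93% and 10.2%).

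A high lost share was not particular to naive pluripotency genes and formative and primed epiblast genes. Trophectoderm markers had 10 lost (13.5%) and 6 gained (8.11%) of 74 regions, with Tead4 losing 3 and gaining 2, and of their 31 shared regions 2 rose and 0 fell. Fibroblast markers had 4 lost (17.4%) and 0 gained of 23 regions. Both lost shares were above the background of 7.42% and the 13.3% of naive pluripotency genes, on small counts. Mesoderm and neuroectoderm markers had 3 of each (5.00%) of 60, the 3 lost ones all near Sox1. The 3 gained there were promoter regions of Hand2, Pax6 and Twist1, at the percentiles 7.56 and 8.89, 7.66 and 8.53, and 28.3 and 20.8, and Pax6 had a further promoter region called in all libraries. Epithelial genes had 5 gained (5.10%) and 6 lost (6.12%) of 98 regions, among them a gained promoter of Cldn7 (52.1 and 64.8). AP-1 and immediate-early genes had 5 gained (5.32%) and 3 lost (3.19%) of 94 regions, the lost share being below the background. Housekeeping controls had 4 gained (5.88%) and 5 lost (7.35%) of 68, close to the background shares.

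**Figure D5:**
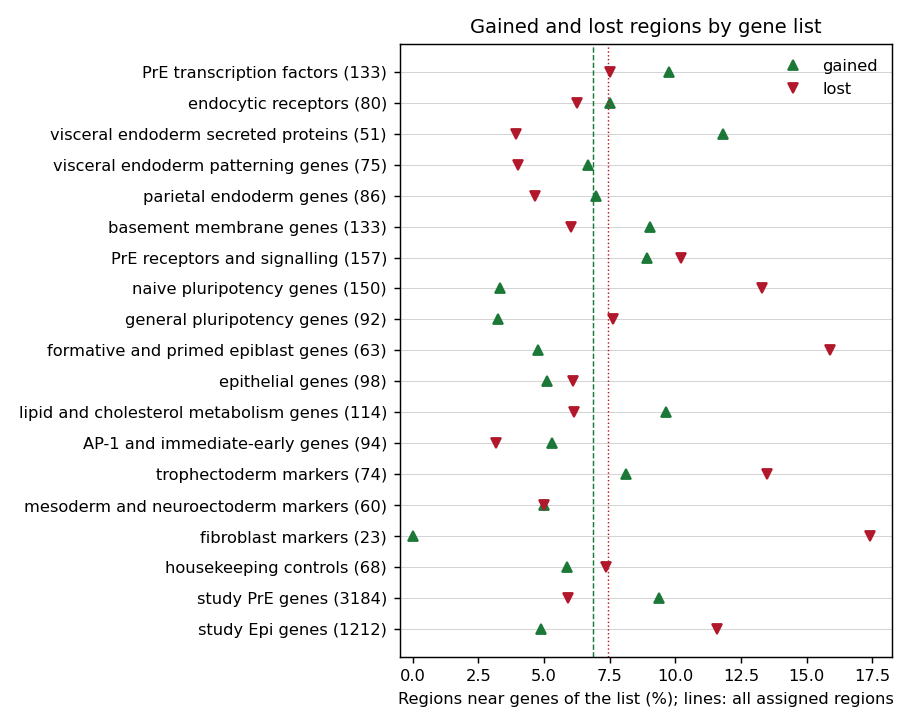
Share (%) of regions within 50 kb of each list's genes that were gained or lost, with the number of regions in parentheses. Vertical lines give the share over all assigned regions (6.88% gained, dashed; 7.42% lost, dotted). Secreted proteins of visceral endoderm are highest for gained among the lists (11.8%), and fibroblast markers for lost (17.4%), followed by formative and primed epiblast genes (15.9%), trophectoderm markers (13.5%) and naive pluripotency genes (13.3%).

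Changed regions were spread over many genes. Gained regions were assigned to 3365 genes and lost regions to 3499, and 871 genes had both (25.9% of the former and 24.9% of the latter). A single region was gained at 2753 genes and lost at 2755. The most gained regions, 6 each, lay near Rbm47, which encodes an RNA-binding protein, and Mical2, an actin-oxidising enzyme gene. Genes with 5 included Myo6, a myosin of endocytic vesicles, Limch1, Zfp423, Igf1r, Timp3, Sord and Fam83b. Gained regions at Myo6 had the highest mean percentile among these genes (58.1), and none of them had more than 1 lost region.

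The most lost regions, 7, lay near Nedd4l, a ubiquitin ligase gene, with 6 each at Esrrb, Th and Akap12. Adpgk, Trip12, Ccdc88c, Tenm4, Auts2 and Klf3 had 5. At Tenm4, all 5 lost regions had been called in both 0 h libraries. At Adpgk none had, and 4 of its 5 were first called in both libraries at 16 h. Long genes hold more regions, and these counts were not adjusted for gene length.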

How the data were processed

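For every library, the authors ran the ENCODE pipeline for ATAC-seq and deposited a list of peaks. File names mark these peaks as filtered by irreproducible discovery rate between pseudoreplicates and against a blacklist. The deposited value of a peak was taken to be a score whose scale is not stated, and it served only to rank peaks within a list. Labels name mm10 and GRCm38, no peak of the 4 lists ended past its chromosome in GRCm38, and GENCODE M21 basic gave the gene models.

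Lists were merged and classified as described above. Shared regions were fitted with limma 3.58.1 (group only, all 4 libraries, moderated variance with a trend), with Benjamini-Hochberg adjustment at 0.05. The script was tested on simulated data. Correlations used 100000 shuffles, or all orders for 8 libraries. The regions, gene lists and motifs were chosen with earlier results of these data known. Named were up to 4 genes of each list with the most gained or lost regions, the 10 genes with most regions, the leading 4 promoters and distal regions per class, the 5 largest rises and falls, and the PrE and Epi loci given above. Some items that this rule named are not reported here. Of the study's lists, 577 of 579 PrE and 220 of 221 Epi symbols matched. The study's DiffBind test uses reads and could not be run on peak lists.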

Additional observations from a re-analysis of the deposited data

How the results depend on the processing

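Class counts rested on the calling rule. With the replicate block, as the mean of the same-numbered pairs, 13321.5 regions were gained and 13711.0 lost, and a call in at least 1 library of a time and neither of the other gave 14524 and 14970. Leaving out 1 library gave 8048 to 11094 gained and 8184 to 10973 lost regions, 2129 to 3117 rises, a difference in peak number of -2024 to 838.5 and in covered length of -2.26 to 0.28 Mb. The sign of these 2 differences turned without 48 h replicate 1, and that of peak number also without 24 h replicate 2. With 1 library left out, promoter shares ranged from 9.93% to 13.9% (gained), 8.48% to 11.1% (lost) and 34.8% to 35.0% (shared), median percentiles from 19.7 to 31.6, 19.3 to 30.2 and 64.8 to 65.2, GATA shares from 22.6% to 24.0%, 19.4% to 20.7% and 15.3% to 15.5%, and the study gene shares from 11.8% to 15.6% (PrE) and 14.2% to 18.6% (Epi).

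Within 5 kb of a start site lay 20.2%, 19.0% and 45.0% of gained, lost and shared regions, and with all annotated genes the promoter shares were 13.2%, 11.4% and 40.1%. With the 50000 highest peaks, the promoter share of shared regions was 37.6%, and the relation of gained regions with time was lost (rho = 0.0490, permutation p = 0.921, two-sided). Ranked by width, the median percentiles were 39.8, 44.1 and 61.8. GATA was in 35.7%, 31.8% and 28.2% of whole regions, 53.6%, 39.5% and 31.0% of windows as WGATAR, and 28.6%, 22.2% and 22.8% of distal windows. Within 10 kb, 8.48% of regions near PrE genes were gained and 9.22% near Epi genes lost. A region covered to 50% by a library's peaks, and all annotated genes, gave 12.4% and 11.3% for the latter. For all these study gene shares, also those with 1 library left out, the background share was not recomputed. Of 141 alternatives, 73 left the result the same, 64 moved it, 3 turned its sign and 1 weakened it. Counts were the same within 1.5 times, and shares and medians within the spread between libraries or pairs. Peak number and covered length had only to keep their sign. Relations with time had to keep their sign and the side of 0.05 on which the permutation p lay.

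The replicate numbers carry no batch in the labels, and deviations of same-numbered libraries correlated at 0.0769 over shared regions. With the replicate block in limma, 4335 regions rose and 5045 fell. Depth is unknown, each group has 2 libraries, and the score's scale is unstated, so absent calls and ranks are limited by list length.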

Other observations

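The 478 gained regions that were called in both libraries of a time between 2 and 16 h, but not at 0 h or 24 h, differed in their motifs from those first called at 48 h. AP-1 matches were in 14.6% of them against 5.73%, GATA matches in 40.2% against 28.5%, and SOX matches in 5.86% against 10.2%. The gained region 797 bp from a start site of Pdgfra was of this kind. Regions called at 0 h and again at 48 h, of which there were 329, had GATA matches in 7.60% and were promoters in 21.3%. An absent call at 24 h may be a peak below the threshold of those lists, and these sets were described after their values were seen.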
